A study of Mus musculus with 6 samples.

Results

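The histone genes of brown adipose tissue were measured in 6 RNA sequencing libraries. The 23 genes described here are all those among the 12966 listed whose symbol begins with Hist and a cluster number, or with H1f, H2af or H3f3. By symbol, 13 belong to the replication-dependent group (1 H1, 1 H2A, 5 H2B, 4 H3 and 2 H4 genes) and 10 are variant genes (2 H1, 6 H2A and 2 H3 genes). The libraries came from male C57BL/6J mice aged 10 weeks. Both groups carried floxed Bscl2, the gene of seipin, an endoplasmic reticulum protein of lipid droplet formation. Ctrl (3 libraries) carried Bscl2f/f alone, and BKO (3 libraries) was Bscl2f/f Ucp1Cre, in which the Ucp1 promoter drives Cre in brown adipocytes and leaves the other cells of the tissue with the floxed gene. Ctrl did not carry the Cre transgene, so its own effect and the loss of Bscl2 cannot be told apart. Whether each library is a different mouse is not in the labels, and a p-value here covers just the variation among these samples, which could be technical. Levels are FPKM, fragment numbers scaled to transcript length and library size, while the read depth behind them is unknown. This scaling does not correct for unequal capture of transcripts or for sequence shared between genes, so comparisons between genes are approximate.

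Replication-dependent histone genes supply the bulk of histone protein during S phase. They lie in clusters, lack introns, and most of their mRNAs end in a conserved stem-loop, bound by the protein Slbp, instead of a poly(A) tail. Some of them also give polyadenylated transcripts in cells that have stopped dividing. Variant histone genes such as H3f3a, H2afz and H1f0 lie outside the clusters, are transcribed through the cell cycle and give polyadenylated mRNA. The library kit named in the labels selects polyadenylated RNA, so transcripts that end at the stem-loop are captured poorly.

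The stem-loops of the measured genes are shown because they are the feature that separates these mRNA ends. They were searched in GENCODE vM21 transcripts of the same symbols, 22 of 23 genes, on the transcript strand, with a pattern of 16 bases that reads GG, any 2 bases, CTTTT, any base, AG, any 2 bases and CC. The pattern was found in 11 genes, 10 of the 12 Hist genes with a transcript and H2afx. Over all protein-coding symbols it was found in 72 of 21877, which is 0.329%, and in 44 of the 67 Hist symbols. Hist1h2bc and Hist2h2be held no match. The 5 forms are written 5′ to 3′ as DNA, with the arms of the stem in capitals and the loop in lower case. The form given for Hist1h1c is also that of Hist1h2be, Hist1h2bg, Hist2h3c1, Hist2h3c2 and Hist3h2a, and the form given for Hist1h3e is also that of Hist1h2bb.
Hist1h4h: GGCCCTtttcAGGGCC
Hist1h4i: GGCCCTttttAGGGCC
H2afx: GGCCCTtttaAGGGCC
Hist1h1c: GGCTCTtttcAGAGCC
Hist1h3e: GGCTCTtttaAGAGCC
The H4 genes and H2afx shared 1 stem, the other genes shared another, and the loops differed in their last base. The annotated transcript went on for 46 nt past the stem-loop in Hist1h4h and 23 nt in Hist1h2bb. In the other 9 genes it went on for 155 to 1861 nt. A poly(A) signal, AATAAA or ATTAAA, lay in the last 60 nt of the annotated transcript of 7 of the 12 Hist genes, Hist1h4h among them.

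The upstream regions of Hist1h4h, Hist1h4i and Hist1h1c are shown because these are the 3 replication-dependent genes tested whose BKO libraries all lay above all Ctrl libraries. They are RefSeq sequences of the build GRCm38.p6, not the build the authors used, and were matched by symbol for 19 of the 23 genes. Each runs 5′ to 3′ on the gene's strand up to the annotated transcript start, with motif matches in capitals. Hist1h4h is at chr13:23530794-23531049 (+ strand), Hist1h4i at chr13:22041363-22041612 (- strand) and Hist1h1c at chr13:23738557-23738807 (+ strand).
Hist1h4h: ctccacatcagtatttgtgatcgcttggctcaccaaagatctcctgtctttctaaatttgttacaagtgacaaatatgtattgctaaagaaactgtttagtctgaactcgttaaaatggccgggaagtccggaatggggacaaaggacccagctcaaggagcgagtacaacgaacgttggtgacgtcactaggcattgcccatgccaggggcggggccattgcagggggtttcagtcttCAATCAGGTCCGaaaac
Hist1h4i: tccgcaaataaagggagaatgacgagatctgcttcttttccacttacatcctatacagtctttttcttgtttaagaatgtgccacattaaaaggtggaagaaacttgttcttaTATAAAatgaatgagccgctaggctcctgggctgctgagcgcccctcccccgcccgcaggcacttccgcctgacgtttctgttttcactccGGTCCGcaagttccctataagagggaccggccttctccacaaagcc
Hist1h1c: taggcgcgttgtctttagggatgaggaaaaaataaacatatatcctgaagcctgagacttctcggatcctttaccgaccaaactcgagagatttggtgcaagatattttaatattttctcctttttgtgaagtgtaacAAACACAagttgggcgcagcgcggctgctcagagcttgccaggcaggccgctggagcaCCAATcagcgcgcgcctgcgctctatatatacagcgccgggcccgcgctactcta
Motifs were searched on both strands in windows of 300 bases around 32851 RefSeq gene starts. GGTCCG, the core of the element that Hinfp binds in H4 promoters, lay in 6 of the 19 genes, namely both H4 genes, H1fx, H2afv, H2afy and H2afy2, and in 8.25% of all windows. The longer form that contains it, CAATC and any base before GGTCCG, lay in Hist1h4h and in 3 windows in all, 0.01%. AAACACA, known from H1 promoters, lay in Hist1h1c and H3f3a, with a share of 7.18% in all windows. CCAAT lay in 8 of 10 Hist genes and 14 of the 19 genes, against 37.4%. ATTTGCAT, the octamer of H2B promoters, lay in 5 of the 19 genes and in 1.74% of all windows. The 5 were the 3 H2B genes with a sequence, Hist3h2a and H3f3b. TATAAA lay in Hist1h4i, Hist1h2bb, Hist1h2bg and H3f3b, and in 13.6% of all windows. A match describes the letters only, and no binding was measured here.

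Replication-dependent genes were listed at a few high levels and many low ones. Hist1h2bc, an H2B gene, stood at 53.7 FPKM on average over the 6 libraries, Hist1h1c, an H1 gene, at 33.7 FPKM and Hist1h4h, an H4 gene, at 20.5 FPKM. Hist2h2be followed at 9.20 FPKM and Hist3h2a at 4.08 FPKM, and the other 8 averaged 0.446 to 1.09 FPKM. Among variants, the H3.3 genes H3f3a (121 FPKM) and H3f3b (75.2 FPKM) were highest, and the linker histone gene H1f0 (46.4 FPKM) was next. The 6 H2A variants ran from H2afz at 29.1 FPKM to H2afy2 at 3.81 FPKM, and H1fx was lowest at 0.991 FPKM. Neighbours in this order often overlapped across libraries, as H2afx and H2afy2 did at 2.98 to 4.90 and 3.24 to 4.61 FPKM. A total of 6 genes were under 1 FPKM on average and were not tested, which left 8 replication-dependent and 9 variant genes.

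**Figure D1:**
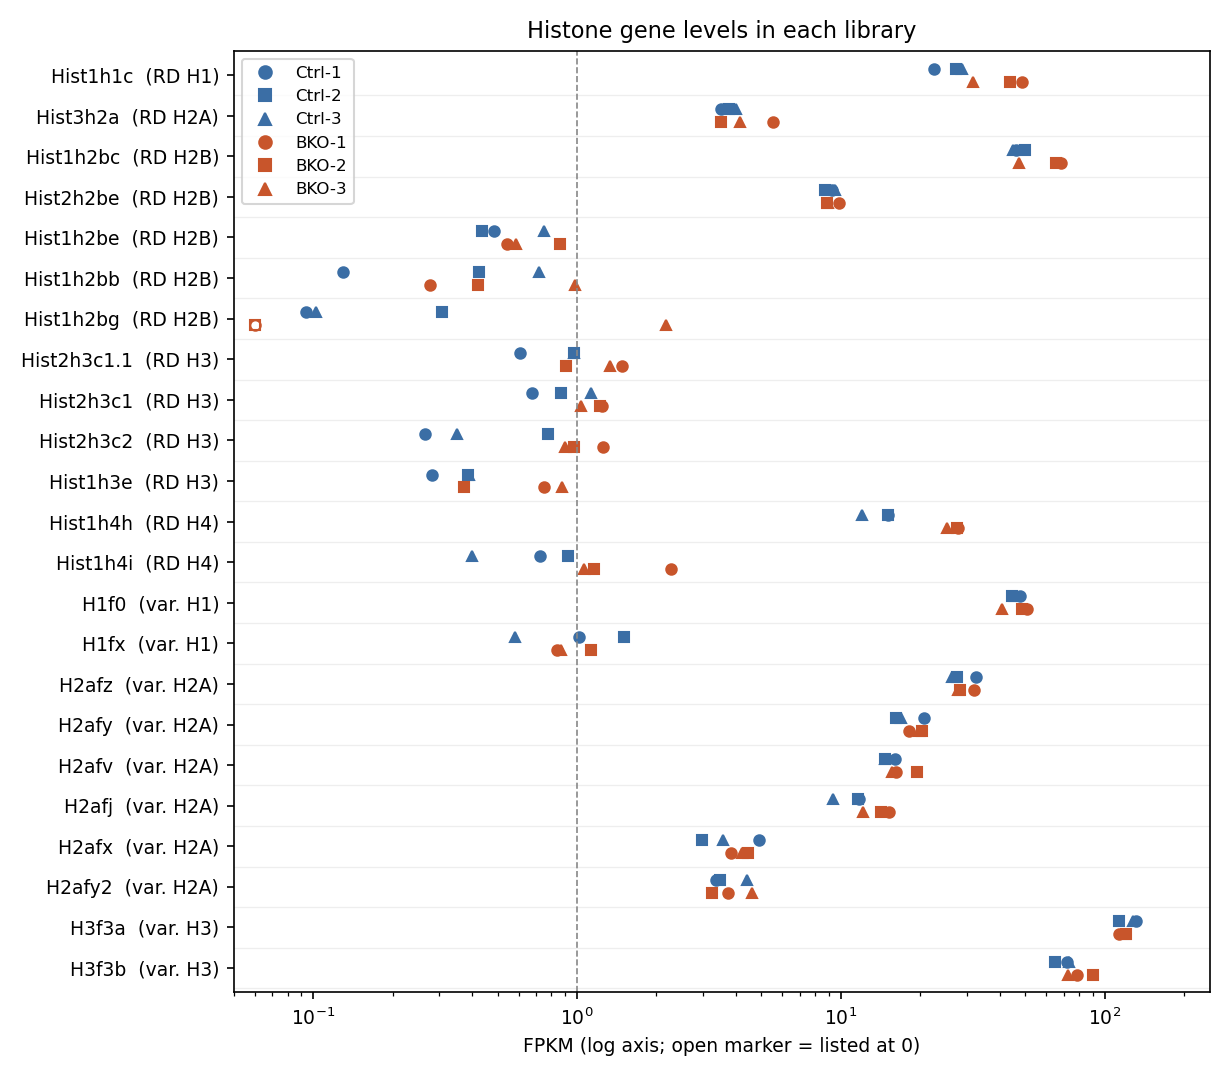
FPKM of each of the 23 histone genes (rows) in each of the 6 libraries on a log axis, with Ctrl above BKO in each row. RD marks replication-dependent genes, var. marks variants, the dashed line is 1 FPKM, and the 3 BKO values of Hist1h4h, 25.3 to 27.7 FPKM, lie to the right of its Ctrl values, 12.1 to 15.1 FPKM.

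In BKO, 1 of the 17 tested histone genes rose and 0 fell. The gene was Hist1h4h (limma with Benjamini-Hochberg adjustment over 11397 genes at 0.05). Over all genes tested, 0.158% were called higher and 0.00877% lower, 0.167% together. At an unadjusted p under 0.05, 5 of the 17 were higher and 0 lower, beside 6.63% and 3.52% of all genes, 10.2% together. The 5 were Hist1h4h, Hist1h1c, Hist1h4i, Hist1h2bc and the variant H2afj. The BKO libraries lay above all Ctrl libraries in 4 of the 17, in all of these but Hist1h2bc, and below in 0, beside 9.06% and 6.82% of all genes, 15.9% together. On the deposited scale the difference was positive in 16 of 17, all but H3f3a, beside 51.6% of all genes. The median log2(FPKM + 1) difference was 0.16 for the 17 genes, 0.31 for the replication-dependent and 0.11 for the variant genes, beside 0.01 for all genes. The positive count was 15 with median ratio rescaling, 14 with quantile normalization and 13 to 15 with 1 library left out. With libraries rescaled to the same sum of FPKM, 9 of 17 were positive and the median of the 17 was 0.0047, where the median of all genes moved to -0.15. The distance between these medians was 0.16 with the deposited values and 0.15 after that rescaling. Of the 17, 3 had a Ctrl mean under 1 FPKM and passed the filter through BKO, Hist1h4i, Hist2h3c1 and Hist2h3c1.1, while H1fx, with a Ctrl mean of 1.04 FPKM and a BKO mean of 0.946 FPKM, did not pass it. The counts and medians over the 17 thus lean toward BKO by the filter, as do those of the 8 replication-dependent genes, and are given as a description. Over all 23 genes without the filter, 21 differences were positive. BKO lay above Ctrl without overlap in 5 and below in 0, beside 9.77% and 6.33% of all 12966 listed genes. The listing held no BKO-3 value between 0 and 0.486 FPKM, so these counts also lean toward BKO among low genes and are a description.

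**Figure D2:**
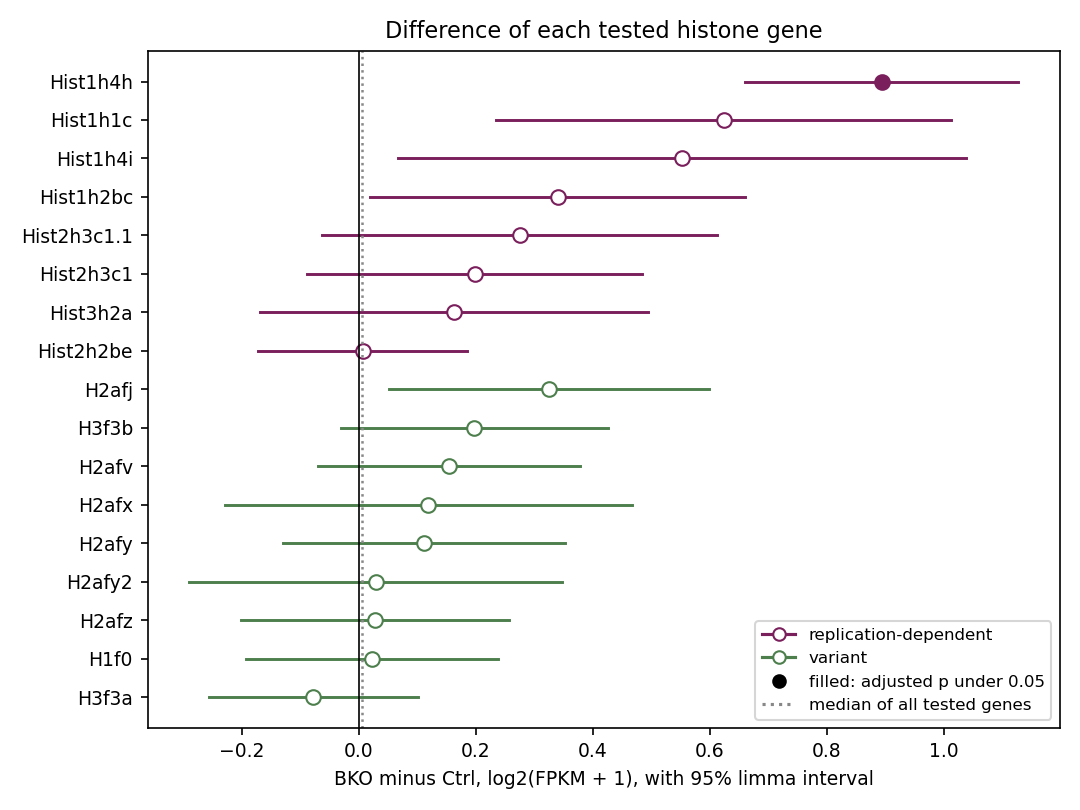
Difference of BKO minus Ctrl on the log2(FPKM + 1) scale for the 17 tested histone genes, with 95% limma intervals. Filled points passed an adjusted p of 0.05, which holds for Hist1h4h at 0.89, and the dotted line is the median of all tested genes at 0.01.

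Hist1h4h encodes histone H4, a core histone of the nucleosome. It stood at 15.0, 15.1 and 12.1 FPKM in Ctrl-1 to Ctrl-3 and at 27.7, 27.6 and 25.3 FPKM in BKO-1 to BKO-3. The groups did not overlap, and the lowest BKO library was above the highest Ctrl library. The means were 14.1 ± 1.73 FPKM in Ctrl and 26.9 ± 1.37 FPKM in BKO (SD, n = 3 per group), a ratio of 1.91. The log2 difference was 0.89 (SE 0.0997, 95% interval 0.66 to 1.13, limma with Benjamini-Hochberg adjusted p = 0.0383). It was the gene of rank 10 by p among all tested. The difference kept its size when 1 library was left out, 0.79 to 0.94, but the call was lost without Ctrl-1 (adjusted p = 0.0517), Ctrl-2 (0.122), BKO-1 (0.189), BKO-2 (0.15) or BKO-3 (0.0559), and was kept without Ctrl-3 (0.0392). It was also lost after rescaling to the same sum (0.71, adjusted p = 1) and with a muscle score, the mean log2 level of skeletal muscle markers, as covariate (0.90, adjusted p = 0.0589). In all, it passed under 11 of 18 alternatives.

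**Figure D3:**
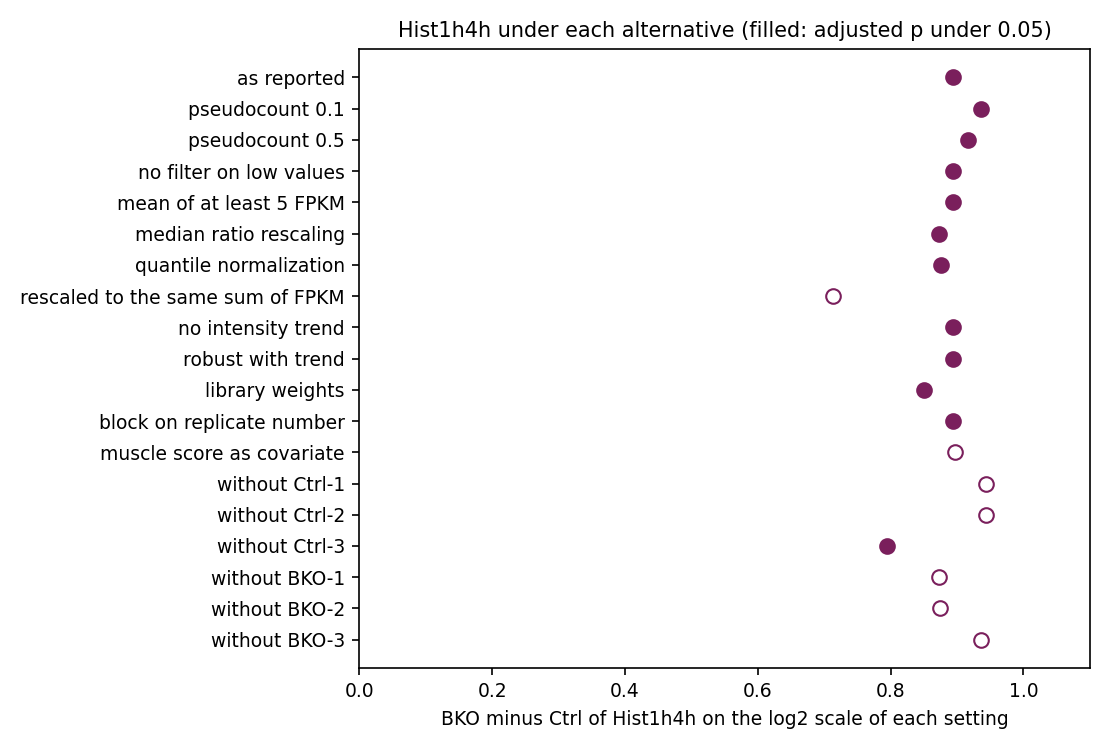
Log2 difference of BKO minus Ctrl for Hist1h4h as reported and under each of the 18 alternatives (rows). Filled points passed an adjusted p of 0.05, and the values run from 0.71 to 0.94, all above 0.

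Of the annotated Hist1h4h transcript, 470 nt long, 45.8% of the stretches of 50 nt also occur in other genes, led by Hist1h4j, Hist1h4a and Hist1h4b. Its reads could therefore have been split with those copies, and its value is uncertain to that extent. Short genes had a higher median difference than long ones. Tested genes whose longest transcript is under 600 nt (348 genes) had a median difference of 0.13, and 14.1% of them had all BKO libraries above all Ctrl libraries, against 8.04% of genes of at least 2000 nt. The part of transcript length in the difference of Hist1h4h was not tested.

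The second H4 gene, Hist1h4i, was listed at 0.725, 0.923 and 0.399 FPKM in Ctrl-1 to Ctrl-3 and at 2.28, 1.16 and 1.07 FPKM in BKO-1 to BKO-3. The groups did not overlap, and BKO-1 stood apart from the other BKO libraries. Its mean was 0.682 ± 0.265 FPKM in Ctrl, under the filter, and 1.503 ± 0.675 FPKM in BKO (SD, n = 3 per group). The log2 difference of 0.55 (95% interval 0.07 to 1.04) did not pass (limma with Benjamini-Hochberg adjusted p = 0.438). Hist1h4h made up 95.5% ± 1.29 of the summed H4 FPKM in Ctrl and 94.8% ± 2.06 in BKO (SD, n = 3 per group), and both genes shared sequence with unlisted H4 copies.

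Hist1h1c encodes H1.2, a linker histone that binds the DNA between nucleosomes. It stood at 22.5, 27.2 and 28.8 FPKM in Ctrl-1 to Ctrl-3 and at 48.5, 43.8 and 31.5 FPKM in BKO-1 to BKO-3. The groups did not overlap, but BKO-3 was close to the highest Ctrl library. The means were 26.2 ± 3.31 and 41.3 ± 8.75 FPKM (SD, n = 3 per group), a ratio of 1.58. The log2 difference was 0.62 (SE 0.166, 95% interval 0.23 to 1.01), and it did not pass (limma, unadjusted p = 0.00656 and Benjamini-Hochberg adjusted p = 0.286). Its annotated transcript shares 8.5% of its stretches of 50 nt with other genes.

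The linker histone variants overlapped between the groups. H1f0 encodes H1.0, the linker histone of differentiated, resting cells. It stood at 47.7, 44.5 and 45.6 FPKM in Ctrl-1 to Ctrl-3 and at 50.8, 48.8 and 40.9 FPKM in BKO-1 to BKO-3, with overlapping groups. Its log2 difference was 0.02 (95% interval -0.19 to 0.24, limma with Benjamini-Hochberg adjusted p = 0.962). H1fx, the H1.X gene, was listed at 1.02, 1.51 and 0.583 FPKM in Ctrl and at 0.839, 1.13 and 0.870 FPKM in BKO, and was not tested. Hist1h1c took 31.6, 37.2 and 38.4% of the summed H1 FPKM in Ctrl-1 to Ctrl-3 and 48.4, 46.8 and 43.0% in BKO-1 to BKO-3. Its share was higher in every BKO library than in any Ctrl library, 35.7% ± 3.66 against 46.1% ± 2.77 (SD, n = 3 per group), while that of H1f0 was 62.8% ± 3.596 against 52.9% ± 2.63. A share is a ratio within a library, so it shows unequal levels and does not depend on the scaling between libraries.

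Among the H2B genes, Hist1h2bc and Hist2h2be carried nearly all of the signal. Hist1h2bc stood at 46.0, 49.8 and 45.0 FPKM in Ctrl-1 to Ctrl-3 and at 68.1, 65.6 and 47.4 FPKM in BKO-1 to BKO-3. BKO-1 and BKO-2 were above all Ctrl libraries, and BKO-3 lay within their range. Its means were 46.95 ± 2.54 and 60.4 ± 11.3 FPKM (SD, n = 3 per group). The log2 difference of 0.34 (95% interval 0.02 to 0.66) did not pass (limma with Benjamini-Hochberg adjusted p = 0.465). Hist2h2be, an H2B gene of another cluster whose annotated transcript ends near a poly(A) signal, stood at 9.29, 8.73 and 9.51 FPKM in Ctrl and at 9.82, 8.90 and 8.95 FPKM in BKO. Its groups overlapped, and its log2 difference was 0.01 (95% interval -0.17 to 0.18, adjusted p = 0.987). Neither of these genes held the stem-loop pattern in its annotated transcript. Hist1h2bc took 81.9% ± 1.596 of the summed H2B FPKM in Ctrl and 84.0% ± 4.41 in BKO, and Hist2h2be 16.1% ± 1.26 and 13.0% ± 1.65 (SD, n = 3 per group).

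The remaining H2B genes were under 1 FPKM on average and not tested. Hist1h2bb ranged from 0.130 to 0.716 FPKM in Ctrl and from 0.277 to 0.979 FPKM in BKO, and Hist1h2be from 0.435 to 0.750 and from 0.545 to 0.862 FPKM. Hist1h2bg was listed at 0.0941, 0.307 and 0.102 FPKM in Ctrl, at 0 in BKO-1 and BKO-2 and at 2.17 FPKM in BKO-3. A listed 0 can be a failed estimate, and 49.7% of the stretches of 50 nt in this gene also occur in others, led by Hist1h2bc. BKO-3 held both the lowest BKO value of Hist1h2bc and the highest value of Hist1h2bg. Whether reads were divided differently between these genes in BKO-3 was not tested.

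The 4 replication-dependent H3 genes were all low and share much of their sequence. Hist2h3c1 was listed at 0.676, 0.871 and 1.13 FPKM in Ctrl and at 1.24, 1.22 and 1.03 FPKM in BKO, and the row named Hist2h3c1.1 at 0.610, 0.970 and 0.972 against 1.49, 0.908 and 1.34 FPKM. Both had overlapping groups, with log2 differences of 0.20 and 0.28 (limma with Benjamini-Hochberg adjusted p = 0.638 and 0.58). Hist2h3c2, which was not tested, was listed at 0.266, 0.774 and 0.352 FPKM in Ctrl and at 1.25, 0.977 and 0.901 FPKM in BKO, with no overlap. Hist1h3e was listed at 0.282 to 0.390 FPKM in Ctrl and 0.373 to 0.875 FPKM in BKO, with overlap. Of the stretches of 50 nt in these transcripts, 100% in Hist2h3c1, 63.5% in Hist2h3c2 and 73.4% in Hist1h3e occur in other genes, so the division of reads among them is uncertain. Their summed level, which also depends on that division because the transcripts differ in length, was 2.56 ± 0.634 FPKM in Ctrl and 4.12 ± 0.625 FPKM in BKO (SD, n = 3 per group), with no overlap. No listed gene had a BKO-3 value between 0 and 0.486 FPKM, a limit that the other libraries did not have, so for rows this low the listing itself favours a higher BKO sum. The H2A gene Hist3h2a stood at 3.51, 3.78 and 3.996 FPKM in Ctrl and at 5.53, 3.50 and 4.15 FPKM in BKO, with overlap and a log2 difference of 0.16 (95% interval -0.17 to 0.49, adjusted p = 0.753).

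Summed over the 13 replication-dependent genes, the level was 99.6, 110 and 104 FPKM in Ctrl-1 to Ctrl-3 and 167, 155 and 126 FPKM in BKO-1 to BKO-3. On this scale all BKO sums lay above all Ctrl sums, with BKO-3 nearest to Ctrl. The means were 104 ± 5.07 and 150 ± 21.2 FPKM (SD, n = 3 per group), a ratio of 1.43. Without Hist1h4h the ratio was 1.36, and with 1 library left out it ran from 1.35 to 1.54. The groups overlapped on other scales because of BKO-3. As a share of all listed FPKM, the sum was 0.00616, 0.00913 and 0.00701% in Ctrl and 0.0121, 0.0139 and 0.0045% in BKO, with BKO-3 the lowest of the 6 libraries and a ratio of 1.37. As a share of FPKM outside mitochondrial genes, a scale added after the data were seen, it was 0.0241, 0.0283 and 0.0269% in Ctrl and 0.0429, 0.0376 and 0.0243% in BKO, with BKO-3 within the Ctrl range and a ratio of 1.32. By type, the ratio was 1.93 for H4, 1.61 for H3, 1.58 for H1, 1.25 for H2B and 1.17 for H2A. The 10 variant genes summed to 341, 301 and 323 FPKM in Ctrl and to 333, 350 and 318 FPKM in BKO, with overlap and a ratio of 1.04. Because the RNA came from whole tissue, a different number of cells of a type and a different amount of RNA per cell cannot be told apart.

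**Figure D4:**
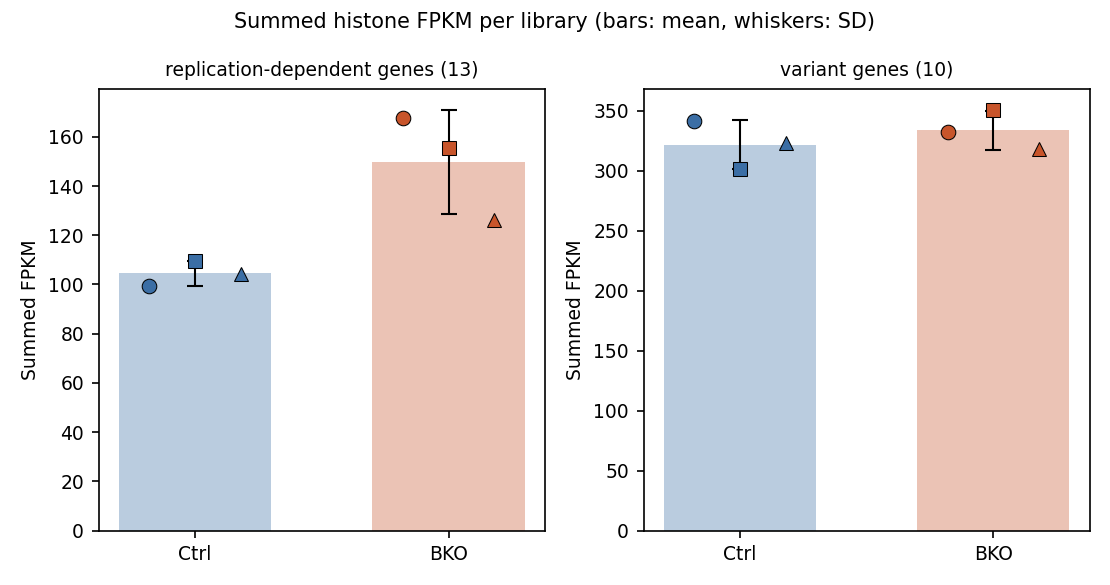
Summed FPKM of the 13 replication-dependent and the 10 variant histone genes in each library, with bars for the mean of 3 libraries and whiskers for the SD. The circle, square and triangle are replicates 1, 2 and 3. Replication-dependent sums run from 99.6 to 110 FPKM in Ctrl and from 126 to 167 FPKM in BKO on this scale, and variant sums overlap.

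The 4 tested genes with Hist1h symbols, from the largest cluster, had a median log2 difference of 0.59, against 0.20 for the 3 with Hist2h symbols and 0.16 for the 1 with a Hist3h symbol. Their summed levels gave ratios of 1.48, 1.11 and 1.17. The 11 genes with the stem-loop pattern summed to 51.3 ± 2.44 FPKM in Ctrl and 83.0 ± 9.61 FPKM in BKO (SD, n = 3 per group), a ratio of 1.62, and these sums are mostly Hist1h4h and Hist1h1c. In the 6 of them that were tested the median log2 difference was 0.38. Hist1h4i, Hist2h3c1 and Hist2h3c1.1 passed the filter through BKO, so the Hist1h, Hist2h and stem-loop medians lean toward BKO and are a description. Without the filter, the untested Hist1h genes gave log2 differences of 0.10 to 0.34, and the untested Hist2h3c2 gave 0.49.

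Variant genes of the H3 type gave opposite signs. H3f3a and H3f3b encode the same protein, H3.3, which is placed into chromatin outside S phase. H3f3a stood at 132, 114 and 128 FPKM in Ctrl-1 to Ctrl-3 and at 113, 120 and 119 FPKM in BKO-1 to BKO-3, a log2 difference of -0.08 (95% interval -0.26 to 0.10, limma with Benjamini-Hochberg adjusted p = 0.785). H3f3b stood at 71.7, 64.6 and 73.3 FPKM in Ctrl and at 78.5, 90.4 and 72.5 FPKM in BKO, a log2 difference of 0.20 (95% interval -0.03 to 0.43, adjusted p = 0.554). Both had overlapping groups. As a share of the summed H3 FPKM, H3f3b took 34.9, 35.6 and 35.9% in Ctrl-1 to Ctrl-3 and 39.9, 42.2 and 37.0% in BKO-1 to BKO-3. The shares did not overlap, 35.5% ± 0.503 against 39.7% ± 2.60 (SD, n = 3 per group), and H3f3a took 63.2% ± 0.847 and 58.3% ± 2.40.

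**Figure D5:**
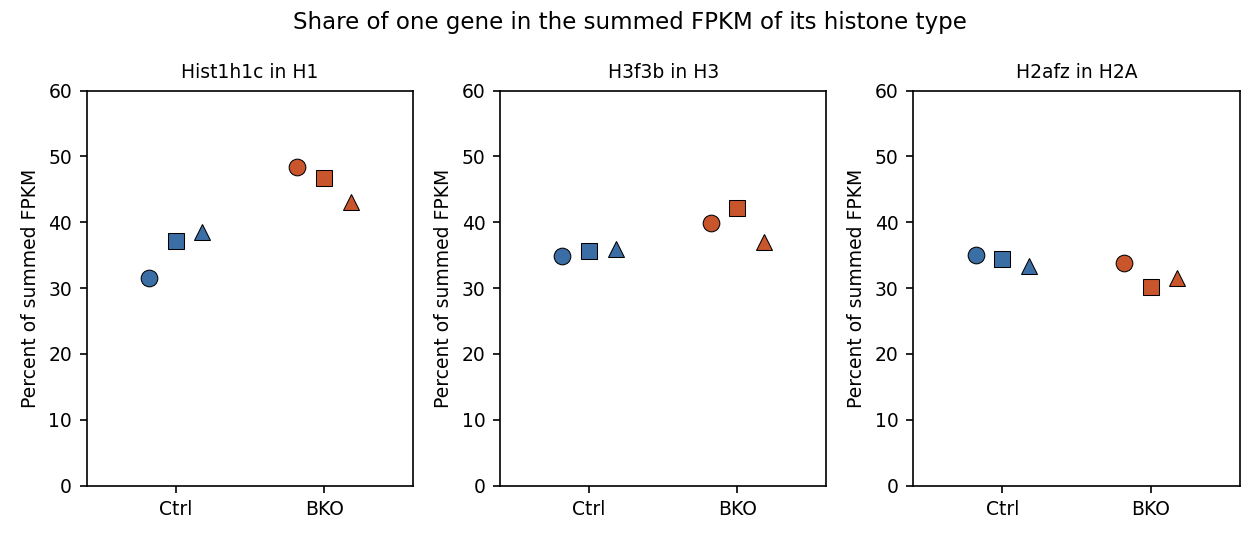
Share of Hist1h1c, H3f3b and H2afz in the summed FPKM of all listed H1, H3 and H2A genes, 1 point per library. The circle, square and triangle are replicates 1, 2 and 3. The BKO shares of Hist1h1c (43.0 to 48.4%) and H3f3b (37.0 to 42.2%) lie above their Ctrl shares (31.6 to 38.4% and 34.9 to 35.9%), and those of H2afz overlap.

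The 6 H2A variants were tested and 0 passed. H2afz encodes H2A.Z, a variant placed at promoters. It stood at 32.5, 27.6 and 26.4 FPKM in Ctrl-1 to Ctrl-3 and at 32.0, 28.2 and 27.9 FPKM in BKO-1 to BKO-3, a log2 difference of 0.03 (95% interval -0.20 to 0.26). H2afy, the macroH2A1 gene, stood at 20.6, 16.2 and 16.9 FPKM in Ctrl and at 18.1, 20.3 and 19.7 FPKM in BKO, with a log2 difference of 0.11 (95% interval -0.13 to 0.35). Both genes had overlapping groups, as did H2afv, the second H2A.Z gene, which stood at 16.1, 14.7 and 14.7 FPKM in Ctrl and at 16.2, 19.4 and 15.6 FPKM in BKO. H2afj encodes H2A.J, a variant known to accumulate in senescent cells. It stood at 11.7, 11.6 and 9.31 FPKM in Ctrl and at 15.2, 14.2 and 12.1 FPKM in BKO, with no overlap. Its log2 difference was 0.33 (SE 0.117, 95% interval 0.05 to 0.60, limma with Benjamini-Hochberg adjusted p = 0.416), and its ratio was 1.28. H2afx, whose phosphorylated protein marks DNA breaks, and H2afy2, the macroH2A2 gene, gave log2 differences of 0.12 and 0.03, with overlapping groups. The adjusted p of the H2A variants other than H2afj was 0.642 or above.

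The factors that make, load and process histones were examined as lists by their known roles. Of 22 symbols of genes that transcribe or process histone mRNA, 20 were listed and 19 tested. Hinfp and Mizf in this list name the same gene. Among the tested, 0 rose, 0 fell, and the median log2 difference was -0.02. The most abundant were Snrpb (46.1 ± 3.01 FPKM in Ctrl, 46.5 ± 3.64 in BKO, SD, n = 3 per group) and Snrpd3 (43.1 ± 1.002 and 42.3 ± 2.86 FPKM), Sm proteins also found in the U7 particle that cuts histone mRNA. Over all genes tested, the groups did not overlap in 9.06% that were higher in BKO and 6.82% that were lower. Of the 19 tested genes here, this held for 2 that were higher, Snrpg (ratio 1.16) and Sympk (ratio 1.09), and 1 that was lower, Hinfp. These 3 and Slbp were named after their values were seen. Hinfp, the activator of H4 genes whose core element is printed above for both H4 promoters, stood at 2.64, 2.65 and 2.85 FPKM in Ctrl and at 2.24, 2.24 and 2.26 FPKM in BKO, and it did not pass. Slbp, the stem-loop binding protein, stood at 16.0, 14.9 and 15.3 FPKM in Ctrl and at 13.0, 15.8 and 15.6 FPKM in BKO, with overlap. Of 34 symbols of histone chaperones and exchange factors, 30 were listed and 29 tested. Supt16, Supt16h and Spt16 in this list name the same gene. Among the tested, 0 rose and 0 fell, with a median of 0.03. The most abundant were the nucleolar chaperone Npm1 (51.2 ± 2.14 and 53.1 ± 2.003 FPKM) and Nap1l4 (45.1 ± 0.350 and 41.1 ± 2.19 FPKM), an H2A-H2B chaperone.

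Cell division genes were measured because replication-dependent histone genes are transcribed in S phase. Of 36 genes of DNA replication and S phase, 32 were listed and 23 tested, and 0 rose and 0 fell. In these, 17 differences were positive, beside 51.6% of all genes tested, with a median of 0.08. Their summed level was 104 to 120 FPKM in Ctrl and 115 to 119 FPKM in BKO, with overlap. Pcna, the sliding clamp of DNA polymerase, stood at 24.4 ± 1.12 and 25.1 ± 0.925 FPKM, and Cdk2, an S phase kinase, at 10.01 ± 1.098 and 9.06 ± 1.03 FPKM (SD, n = 3 per group). Over all genes tested, 9.06% lay higher in BKO without overlap and 6.82% lower. In 3 of the 23 tested genes all BKO libraries lay above all Ctrl libraries, and in 0 they lay below. These were Cdc45, a helicase cofactor (2.54 ± 0.172 and 3.48 ± 0.242 FPKM), Tyms, the thymidylate synthase gene (2.07 ± 0.329 and 3.14 ± 0.718 FPKM), and Rfc5, a clamp loader subunit (3.07 ± 0.0557 and 3.54 ± 0.408 FPKM, SD, n = 3 per group). The same held for Mcm2, Mcm5 and Ccna2, which were under 1 FPKM and not tested, at ratios of 1.49, 1.58 and 1.31. The listing held no BKO-3 value between 0 and 0.486 FPKM, so for genes this low it favours higher BKO values. All 6 genes were named after their values were seen. Of 20 mitosis symbols, of which Cdk1 and Cdc2a name the same gene, only 6 were listed. Of these 1, the centromeric histone gene Cenpa, was tested, at 6.28 ± 2.11 and 6.49 ± 1.45 FPKM. Of 26 RNAs that lack a poly(A) tail in at least some forms, 4 were listed and tested, and 0 passed. Their sums were 455 to 563 FPKM in Ctrl and 599 to 661 FPKM in BKO, with no overlap, and Neat1 (392 ± 50.4 and 494 ± 36.2 FPKM) and Malat1 (110 ± 6.23 and 131 ± 22.1 FPKM) made up most of them. The part of unequal capture of RNA without a poly(A) tail in the replication-dependent sums was not tested.

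Markers of macrophages and of fibroblasts also had higher summed levels in every BKO library. Of 24 macrophage marker symbols, of which Emr1 and Adgre1 name the same gene, 23 were listed and 19 tested. Among the tested, 5 rose (Ctss, Gpnmb, Lyz2, Ms4a7 and Tyrobp) and 0 fell. Gpnmb, Ms4a7 and Lyz1 had Ctrl means under 1 FPKM and passed the filter through BKO. The counts and the median of the tested markers thus lean toward BKO by the filter. All 19 differences were positive, with a median of 0.92. The sum of the listed markers was 72.7 to 120 FPKM in Ctrl and 212 to 283 FPKM in BKO, and 0 of them were listed at 0 in any library. In BKO, the macrophage sum and the replication-dependent sum had the same order, BKO-1, BKO-2, BKO-3. In Ctrl they did not, and Ctrl-1 was highest in the macrophage sum and lowest in the replication-dependent sum. Of 12 fibroblast and preadipocyte markers, 0 passed, and their sums did not overlap, 362 to 478 FPKM in Ctrl and 479 to 563 FPKM in BKO. The part of macrophages or fibroblasts in the histone differences was not tested. Lymphocyte markers (5 of 14 listed), neutrophil and mast cell markers (3 of 11), erythroid markers (6 of 10), skeletal muscle markers (14 of 18) and endothelial markers (12 of 12) had overlapping sums, and 0 of their tested genes passed. The muscle sum ran from 190 to 769 FPKM in Ctrl and from 231 to 528 FPKM in BKO. All 12 brown adipocyte markers were listed, among them Ucp1 at 2851 ± 562 and 2966 ± 19.7 FPKM (SD, n = 3 per group), so the defining genes of the labelled tissue were present. All 12 were tested, 0 passed, and their sums overlapped. In 2 of them, Cox7a1 and Cox8b, all BKO libraries lay above all Ctrl libraries, beside 9.06% of all genes tested. In 1, Cidea, they lay below, beside 6.82%.

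The libraries differed in ways that touch these values. Bscl2 was 109 ± 6.05 FPKM in Ctrl and 17.4 ± 1.32 FPKM in BKO (exact two-sided permutation p = 0.1, the smallest that 3 against 3 libraries allow), in the direction of the labels. The sum of FPKM was 1119228 to 1617963 in 5 libraries and 2808874 in BKO-3, and mitochondrial genes took 63.1 to 81.5% of it. Mitochondrial tRNA rows alone took 45.1% of the sum in BKO-2, the lowest share, to 74.4% in BKO-3, the highest. The rescaling to the same sum of FPKM depends on these rows. BKO-3 held 0 values between 0 and 0.486 FPKM, where each of the other libraries held 340 to 631. A histone gene below that level in BKO-3 may therefore not be listed, and 12 of the 67 Hist symbols in GENCODE vM21 were. The histone genes together made up 0.107, 0.106 and 0.110% of the FPKM outside mitochondrial genes in Ctrl-1 to Ctrl-3 and 0.128, 0.123 and 0.0853% in BKO-1 to BKO-3, so BKO-3 was the lowest of the 6 in this share.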

How the data were processed

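RNA from brown adipose tissue was sequenced in 6 libraries, 3 per group. The authors deposited FPKM, scaled for length and library size. CASAVA 1.8, TopHat2 2.0.12, Cufflinks 2.2.1 and the build NCBIM37 are named per the submitters' processing notes, with options not given in the sources used here. Sample descriptions name the Ctrl columns MT and the BKO columns WT, and these descriptions were followed. FPKM hold no read counts, so a count model was not fitted and depth is unknown.

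Genes averaging 1 FPKM or more were tested on log2(FPKM + 1), which understates changes of low genes, with limma 3.58.1 in R 4.3.3. The empirical Bayes step had an intensity trend, there was no covariate, and p-values were Benjamini-Hochberg adjusted over 11397 genes at 0.05. Ratios in the text are of mean or summed FPKM. The steps were tested on simulated data. Members and lists were chosen with earlier results of these data known. Values per library are given for genes past the threshold, the 2 most abundant and the 2 of lowest p in each class, and means for the 2 most abundant genes of each pathway list, where no gene passed. Cell type marker lists are given by counts and sums. Other genes with values were chosen after these were seen. Transcripts were GENCODE vM21 and promoters RefSeq GRCm38.p6, matched by symbol. Alternatives were other pseudocounts, filters, scalings and limma settings, a replicate block, a muscle score and leaving out each library.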

Additional observations from a re-analysis of the deposited data

How the results depend on the processing

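Counts of calls, the histone median and the differences of tested histone genes were recomputed under 18 alternatives (17 for 6 low genes, which a filter left out), and the ratio of summed replication-dependent FPKM under 10. Shares, ratios by type, class medians and list sums were not. Of the called differences, 0 changed sign. Genes called higher in BKO numbered 18, against 11 with no filter on low values, 9 with a mean of at least 5 FPKM, 35 after rescaling to the same sum of FPKM, 32 with robust empirical Bayes, 48 with library weights, 9 with a muscle score as covariate, and 5 to 30 with 1 library left out (5 without BKO-1, 30 without BKO-3). Genes called lower numbered 1, against 10 after rescaling to the same sum, 6 with library weights, 2 with a replicate block, and 1 to 3 with 1 library left out. The count of histone genes called higher was 1, against 0 after rescaling to the same sum, 0 with the muscle score, and 0 to 1 with 1 library left out. The median log2 difference of the tested histone genes was 0.16, against 0.0047 after rescaling to the same sum, 0.22 with library weights, and 0.12 to 0.21 with 1 library left out. The ratio of summed replication-dependent FPKM was 1.35 to 1.54 with 1 library left out, and 1.32 to 1.41 under other scalings, with groups that overlapped when scaled to the sum of FPKM with or without mitochondrial genes. Causes of these shifts were not tested. Replicate numbers were not taken to pair the samples. Deviations of same-numbered libraries correlated at 0.196, -0.104 and -0.1 across genes, against -0.126 to 0.219 for differently numbered ones. With 3 libraries per group these values cannot settle whether the samples were paired. With the replicate block, Hist1h4h was still called (0.89, limma with Benjamini-Hochberg adjusted p = 0.0334) and 1 histone gene was higher. No histone gene other than Hist1h4h passed under any alternative. The number of libraries and the unknown depth limit what can be seen in genes near or below 1 FPKM.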
